A study of Mus musculus with 2 samples.

Results

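The Schlafen genes are a family of 7 genes examined here, Slfn1, Slfn2, Slfn3, Slfn4, Slfn5, Slfn8 and Slfn9, out of 23235 genes in the deposited table. They are the table rows carrying those symbols, and they were chosen by their FPKM values in APL#2 and APL#1, so those values are a description and not a finding. RNA sequencing compared 2 mouse acute promyelocytic leukaemias, APL#2 and APL#1, with 1 library each, which the series presents as clones with unlike frequencies of leukaemia-initiating cells (LIC); which clone has more is not stated in the sources used here. The titles of both libraries carry VEH although both are labelled Untreated. APL#2 cells were given to recipients at a dose of 200000 cells, and APL#1 cells at 2000000 cells. Both leukaemias came from C57BL/6-Ly5.2 mice, are labelled PML-RAR KI APL in one field and mCG-PML-RAR transgenic mice in another, and have a labelled age of 10 weeks. Both were grown in non-irradiated C57BL/6-Ly5.1 (CD45.1+) mice, and CD45.2+ cells were collected from spleen on immunomagnetic columns. The labels do not spell out mCG, and they give no number of animals behind a library. No difference below has a replicate check, and leukaemia, recipient, cell dose and library cannot be told apart.

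Schlafen proteins take their name from the German word for sleep, after the slowed growth of thymocytes that expressed Slfn1. They share an N-terminal Schlafen core, and several family members are known to cleave or bind transfer RNA. Mouse members are commonly sorted into short proteins (Slfn1 and Slfn2), intermediate ones (Slfn3 and Slfn4) and long ones with a helicase-like C-terminal part (Slfn5, Slfn8 and Slfn9). Many are induced by type I interferon, and in blood cells Slfn2 is known for keeping T cells and monocytes quiescent and Slfn4 for its expression in myeloid cells. Slfn4 is also known to decline as myeloid precursors mature into macrophages.

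All 7 members lie in 1 cluster on chromosome 11. Together with the rows of Slfn10-ps and Slfn14-ps it spans mm9 positions 82724755 to 83100228, or 375474 bases. In the order of the chromosome the members are Slfn5, Slfn9, Slfn8, Slfn2, Slfn1, Slfn4 and Slfn3. In the GENCODE annotation (GRCm38), Slfn8 and Slfn9 lie on the minus strand and the other 5 members on the plus strand. Slfn4 ends 1113 bases before Slfn3 begins, and both run the same way.

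The promoter windows below are shown because the members are close relatives with different RNA levels. They come from RefSeq (GRCm38.p6) and run 5′ to 3′ over 300 bases, 250 of them before the gene's start. Capitals mark every match, on either strand, to GAAANNGAA (the core of the interferon-stimulated response element, ISRE) or AANNGAAA (the core bound by interferon regulatory factors, IRFs); a copy of one can overlap a copy of the other. Slfn4 and Slfn2 are the members with the highest RNA levels, Slfn9 and Slfn8 are a pair of close copies, and Slfn5 was nearly silent.
Slfn4, chr11:83174936-83175235, plus strand: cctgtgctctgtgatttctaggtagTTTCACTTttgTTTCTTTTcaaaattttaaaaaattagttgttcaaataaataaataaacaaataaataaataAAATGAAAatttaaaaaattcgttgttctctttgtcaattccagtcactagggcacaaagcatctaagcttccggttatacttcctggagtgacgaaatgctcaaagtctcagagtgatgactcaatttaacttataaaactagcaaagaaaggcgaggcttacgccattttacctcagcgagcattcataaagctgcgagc
Slfn2, chr11:83064862-83065161, plus strand: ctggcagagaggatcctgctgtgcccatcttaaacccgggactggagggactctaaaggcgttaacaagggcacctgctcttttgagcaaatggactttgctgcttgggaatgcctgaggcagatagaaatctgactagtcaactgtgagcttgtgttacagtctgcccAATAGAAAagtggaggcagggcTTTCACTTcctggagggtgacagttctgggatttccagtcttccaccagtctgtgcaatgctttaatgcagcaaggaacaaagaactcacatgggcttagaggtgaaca
Slfn9, chr11:82991781-82992080, minus strand: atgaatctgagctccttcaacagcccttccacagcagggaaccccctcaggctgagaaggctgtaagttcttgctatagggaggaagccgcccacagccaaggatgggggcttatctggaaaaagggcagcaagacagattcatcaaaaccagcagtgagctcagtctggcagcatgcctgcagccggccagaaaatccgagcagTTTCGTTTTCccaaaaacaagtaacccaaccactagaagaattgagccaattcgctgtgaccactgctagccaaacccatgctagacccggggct
Slfn8, chr11:83020761-83021060, minus strand: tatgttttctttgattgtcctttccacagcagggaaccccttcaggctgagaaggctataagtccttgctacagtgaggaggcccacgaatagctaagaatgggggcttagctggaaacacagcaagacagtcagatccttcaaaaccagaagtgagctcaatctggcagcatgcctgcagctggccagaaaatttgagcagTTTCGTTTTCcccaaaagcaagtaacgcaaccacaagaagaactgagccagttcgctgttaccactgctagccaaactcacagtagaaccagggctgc
Slfn5, chr11:82951852-82952151, plus strand: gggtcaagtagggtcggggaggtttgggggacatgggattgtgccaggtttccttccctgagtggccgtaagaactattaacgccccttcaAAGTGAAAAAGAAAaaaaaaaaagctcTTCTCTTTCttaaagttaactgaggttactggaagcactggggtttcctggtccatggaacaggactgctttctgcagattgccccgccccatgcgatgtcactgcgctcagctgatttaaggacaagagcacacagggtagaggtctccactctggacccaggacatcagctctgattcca

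The Slfn9 and Slfn8 windows were alike, with 248 of 292 aligned bases identical (84.9%). Each held the ISRE core as the letters TTCGTTTTC, close to the start. Counted with the first transcribed base as 0, it lay at -44 to -36 in Slfn9 and at -47 to -39 in Slfn8. Slfn5 held 2 copies, at -155 to -147 and at -132 to -124. The windows of Slfn4, Slfn2, Slfn1 and Slfn3 did not hold GAAANNGAA. Among 32851 RefSeq windows of this length, 8.56% held the ISRE core. The IRF core was found in the windows of all 7 members and in 23.9% of all windows. It was added to the search after a promoter had been read, so nothing is read from that count. Slfn4 held 3 copies, at -225 to -218, -214 to -207 and -152 to -145, and Slfn2 held 2, at -81 to -74 and -59 to -52.

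Other motifs varied in how many member windows held them. Slfn2 held the letters GGGATTTCC at -32 to -24 and Slfn5 the letters GGGGTTTCC at -93 to -85, both matches to GGNNTTTCC (the kappa B motif of NF-kB factors), which 5.82% of all windows held. Of the member windows, that of Slfn9 held GAGGAA, a core for ETS factors such as PU.1, present in 28.3% of all windows. TTNCNNAA, used for C/EBP factors, was in 40.7% of all windows and in those of Slfn5, Slfn9, Slfn8, Slfn2, Slfn4 and Slfn3. TTCNNNGAA, the GAS element bound by STAT dimers, was in 8.30% of all windows and in no member window. The Slfn4 window had the lowest G and C content of the 7 genes, 33.7%, against 49% to 53% in the first windows of the others. A match to letters is not a measured binding site.

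RNA levels across the family ranged widely within each leukaemia. They are given as FPKM, a count of sequenced fragments set against transcript length and library total, so members can be compared per length. In APL#2 the order was Slfn4 at 3.02 FPKM, Slfn2 at 1.50, Slfn8 at 0.645, Slfn3 at 0.197, Slfn9 at 0.167, Slfn5 at 0.0112 and Slfn1 at 6.44e-05. In APL#1 it was Slfn4 at 10.9 FPKM, Slfn2 at 1.02, Slfn8 at 0.549, Slfn9 at 0.481, Slfn3 at 0.325, Slfn5 at 0.0212 and Slfn1 at 0.0106. The order was the same in both libraries but for Slfn9 and Slfn3, which changed places. Between neighbours in this order no spread over samples can be given.

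**Figure D1:**
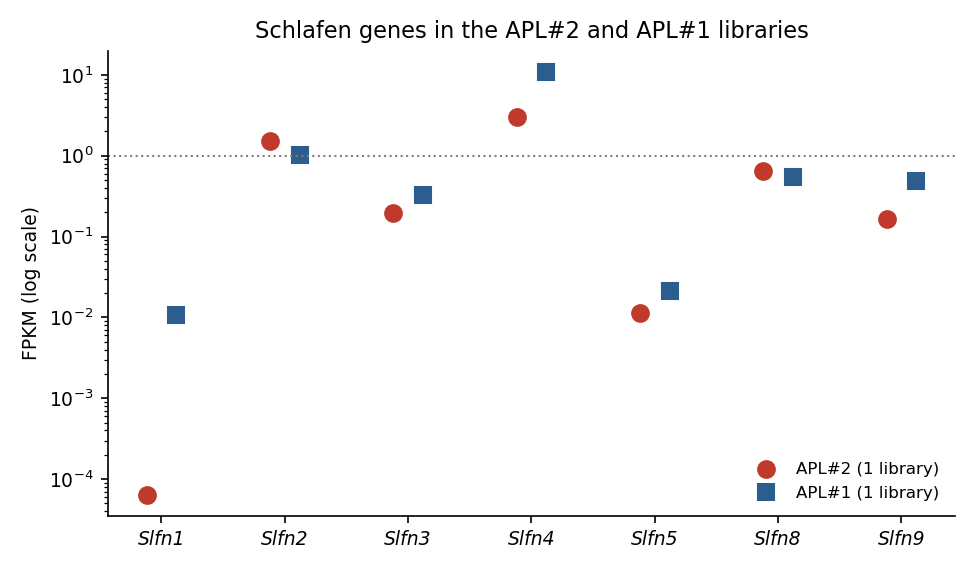
RNA level of each Schlafen member in FPKM (log axis) in APL#2 (circles) and APL#1 (squares), 1 library each; the dotted line marks FPKM 1. Slfn4 stands at 3.02 in APL#2 and 10.9 in APL#1, and the other members lie at 1.50 or below in both.

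The summed level of the 7 members was lower in APL#2, and Slfn4 alone accounted for the gap. The 7 members summed to 5.54 FPKM in APL#2 and 13.3 FPKM in APL#1. The other 6 members summed to 2.52 FPKM in APL#2 and 2.41 FPKM in APL#1. Slfn4 made up 54.5% of the summed level in APL#2 and 81.9% in APL#1. Slfn2 made up 27.1% in APL#2 and 7.68% in APL#1. Slfn4 was 2.01 times Slfn2 in APL#2 and 10.7 times Slfn2 in APL#1. By FPKM alone, 2 members (Slfn2 and Slfn8) were higher in APL#2 and 5 were lower. Of all genes that differed 60.9% were lower, as were 64.5% of genes averaging 0.1 to 1 FPKM and 71.6% of measured genes (those whose FPKM averaged 1 or more, which hold Slfn4 and Slfn2 of the members).

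Slfn4, the myeloid member, was lower in APL#2 and, of the members, lay farthest from 0 on the log2(FPKM + 1) scale used below. Its 3.02 FPKM in APL#2 ranked 1198 of all genes, and its 10.9 FPKM in APL#1 ranked 379. The plain ratio was 0.277, which is 3.61-fold lower in APL#2. By depth estimated from low values, this rests on about 631 to 675 fragments in APL#2 and about 2106 to 2251 in APL#1, over the lengths of its annotated transcripts. The interval of the ratio from counting error alone was 0.254 to 0.303 (95%, exact conditional binomial, from the estimated fragments). In the authors' deposited table the gene had p of 0.00282 and q of 0.682, and their test statistic implies a standard error of 0.62 around the log2 ratio of -1.85. With 1 library a side, that error comes from the authors' model and not from replicates.

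Differences over many genes are given after adding 1 to each FPKM, as the log2 of the APL#2 value over the APL#1 value, and a gene past 1 or -1 on that scale is called 2-fold higher or lower. Slfn4 stood at -1.57, rank 46 from the lowest of 4100 measured genes. It was the 1 member of 7 called 2-fold lower, beside 2.44% of measured genes, and no member was called 2-fold higher, beside 2.1%. Members were chosen with these values known, so nothing is read from that count. The median of all measured genes was -0.17, with an interquartile range of -0.37 to 0.04. Relative to that median, Slfn4 stood at -1.39. Over all genes 86 were called higher and 100 lower; relative to the median the split was 120 and 72, after upper-quartile scaling 127 and 73, and Slfn4 was called lower in each.

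**Figure D2:**
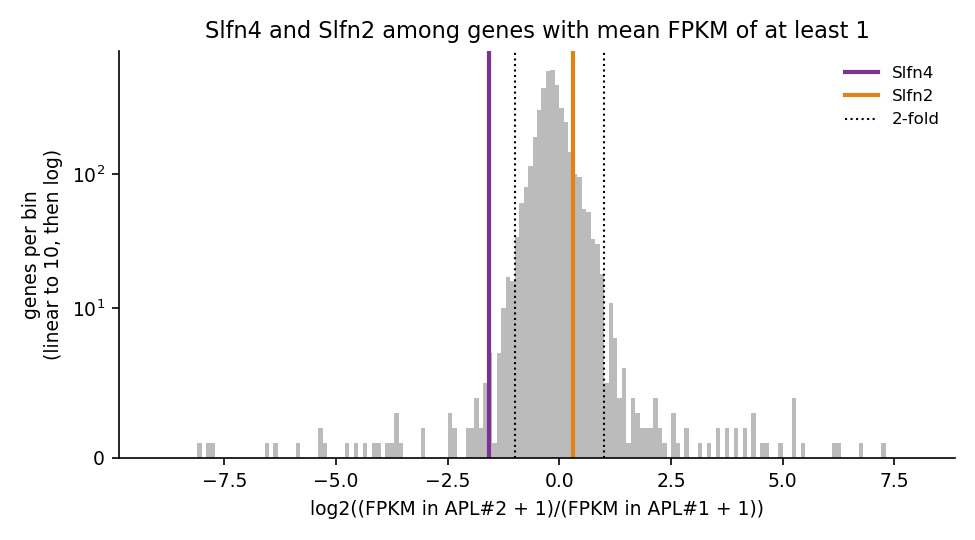
Number of measured genes per 0.1-wide bin of the log2(FPKM + 1) difference, APL#2 minus APL#1 (vertical axis linear to 10 and logarithmic above), with Slfn4 and Slfn2 as lines and dotted lines at 2-fold. Slfn4 at -1.57 lies in the lower tail and Slfn2 at 0.31 on the upper side of the median of -0.17.

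Slfn3, the other intermediate member and the next gene downstream of Slfn4, was low in both leukaemias. It stood at 0.197 FPKM in APL#2 and 0.325 FPKM in APL#1, about 20.2 fragments in APL#2 and 30.8 in APL#1. The ratio was 0.606, with a counting interval of 0.322 to 1.08 that includes 1. Slfn4 was 15.3 times Slfn3 in APL#2 and 33.5 times Slfn3 in APL#1. Over the 1524 aligned coding bases Slfn3 and Slfn4 were 95.3% identical, the closest pair in the family. Of all 50-base words of the Slfn3 transcript, 14.3% also occur in Slfn4 transcripts, and 6.36% of those of Slfn4 occur in Slfn3. How reads matching both genes were assigned is unstated in those sources, so the level of Slfn3 is uncertain. Slfn3 and Slfn4 summed to 3.22 FPKM in APL#2 and 11.2 FPKM in APL#1, a ratio of 0.287, close to that of Slfn4 alone.

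Slfn2, the short member known for immune cell quiescence, was the more highly expressed of the short pair and, by FPKM, was higher in APL#2. It stood at 1.50 FPKM in APL#2 and 1.02 FPKM in APL#1, about 141 fragments in APL#2 and 88.7 in APL#1. The ratio was 1.47, with a counting interval of 1.12 to 1.93, and the difference on the log2(FPKM + 1) scale was 0.31, short of 2-fold. In the authors' deposited table its p was 0.603 and its q 0.999997, and the implied standard error of the log2 ratio of 0.56 was 1.07. Slfn2 shared 4.27% of its 50-base words with Slfn4 and none with the other 5 members.

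Slfn1, the founding short member, was at or near 0. APL#2 listed it at 6.44e-05 FPKM and APL#1 at 0.0106 FPKM, which equal about 0.00678 fragments in APL#2 and 1.03 in APL#1. The value for APL#2 is a small part of 1 fragment, and the value for APL#1 is about 1 fragment, so no fold is given. Slfn1 lies between Slfn2 and Slfn4 on the chromosome. It shared 11 of its 1815 50-base words with other members.

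Slfn5, a long member and in other studies an interferon-induced gene, was nearly silent in both. It stood at 0.0112 FPKM in APL#2 and 0.0212 FPKM in APL#1, about 3.78 fragments in APL#2 and 6.61 in APL#1. The ratio was 0.528, with a counting interval of 0.113 to 2.08. The deposited position of this row is shared with Unc45b and 1700003F17Rik, which RefSeq names Slfn5os, a transcript on the opposite strand. Both of those rows were listed at 0 in both libraries. Slfn5 shared no 50-base word with another member.

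The long members Slfn8 and Slfn9 are neighbours with like sequences, and by FPKM Slfn8 was higher and Slfn9 lower in APL#2. Slfn8 stood at 0.645 FPKM in APL#2 and 0.549 FPKM in APL#1, about 112 to 146 fragments in APL#2 and 88.4 to 115 in APL#1. Its ratio was 1.17, with a counting interval of 0.895 to 1.53. Slfn9 stood at 0.167 FPKM in APL#2 and 0.481 FPKM in APL#1, about 54.5 fragments in APL#2 and 145 in APL#1. Its ratio was 0.348, with a counting interval of 0.247 to 0.474. In the authors' deposited table its p was 0.183 and its q 0.999997, and the implied standard error of the log2 ratio of -1.52 was 1.14. Slfn8 was 3.86 times Slfn9 in APL#2 and 1.14 times Slfn9 in APL#1.

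Both genes were below FPKM 1, where ratios spread widely. Of 6055 genes with mean FPKM from 0.1 to 1, the range that holds Slfn3, Slfn8 and Slfn9, 9.81% had a plain ratio at least 2-fold lower in APL#2 and 6.28% at least 2-fold higher. The interquartile range of their log2 ratio was -0.56 to 0.19. Slfn8 and Slfn9 were 92.7% identical over 2733 aligned coding bases. They shared 357 of their 50-base words, 8.80% of those of Slfn8 and 6.24% of those of Slfn9. Summed, the pair stood at 0.812 FPKM in APL#2 and 1.03 FPKM in APL#1, a ratio of 0.789. How reads matching both genes were assigned is unstated in the sources used here. The split between them is therefore uncertain, and the counting intervals do not cover this.

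**Figure D3:**
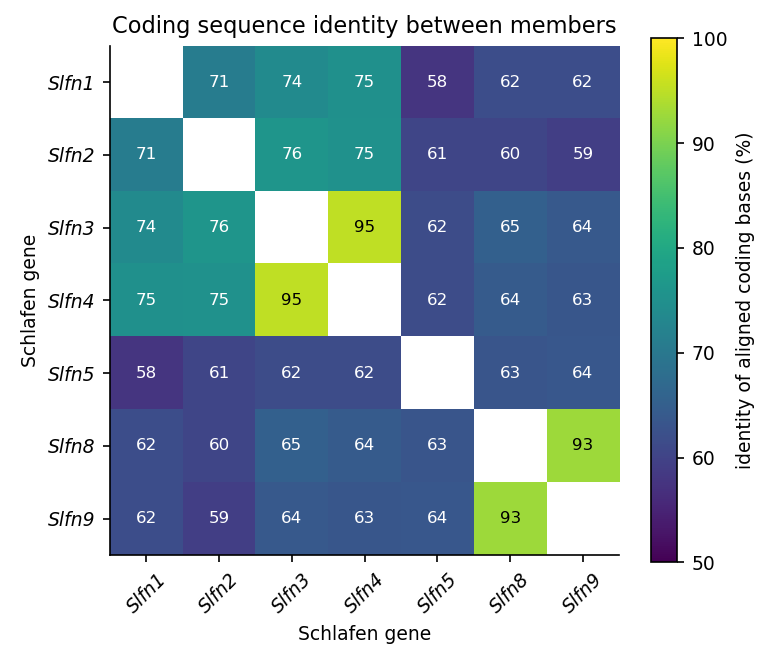
Share of aligned coding bases that are identical, in percent, for each pair of members (GENCODE M21, longest RefSeq-linked transcript; colour scale from 50 to 100). Slfn3 with Slfn4 (95.3%) and Slfn8 with Slfn9 (92.7%) stand out, and every other pair lies between 57.7% and 76.2%.

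Coding length followed the known size classes. The coding sequences encode 337 residues in Slfn1, 378 in Slfn2, 517 in Slfn3, 602 in Slfn4, 884 in Slfn5 and 910 in both Slfn8 and Slfn9. The short Slfn1 and Slfn2 transcripts have 2 exons each, and Slfn4 has 8. In each library the highest level belonged to an intermediate member and the lowest to a short one. Slfn1 and Slfn2 were 71.0% identical over 1005 aligned coding bases, though Slfn2 was above 1 FPKM and Slfn1 at about 1 fragment or less.

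The 3 other Schlafen rows of the table were silent or low. Slfn10-ps, a pseudogene between Slfn8 and Slfn2, stood at 0.0953 FPKM in APL#2 and 0.161 FPKM in APL#1, a ratio of 0.591 with a counting interval of 0.308 to 1.16. Slfn14-ps, the older name of Slfn14 per RefSeq, was listed at 0 in both libraries. Slfnl1, a Schlafen-like gene on chromosome 4, was also listed at 0 in both.

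Of 7 measured genes around the cluster, 2 were called 2-fold lower and none higher, beside 2.44% and 2.1% of all measured genes. Within 1000000 bases on either side the table holds 49 further rows, of which 20 were at 0 in both libraries and 7 were measured. The nearest measured gene before the cluster, Nle1, a ribosome assembly factor, stood at 1.01 FPKM in APL#2 and 1.09 FPKM in APL#1. AI662270, a long noncoding RNA inside the cluster between Slfn3 and Slfn14-ps, stood at 4.82 FPKM in APL#2 and 5.79 FPKM in APL#1. The nearest measured gene after the cluster, 1700020L24Rik, stood at 8.85 FPKM in APL#2 and 6.18 FPKM in APL#1. The 7 had a median 0.01 above that of all measured genes, and the 370 measured genes of chromosome 11 had a median 0.02 below it (-0.02).

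A pair of neighbours were called 2-fold lower, both beyond the cluster's far end. Ccl3, a chemokine gene 361117 bases away, stood at 1.19 FPKM in APL#2 and 5.34 FPKM in APL#1. The row 1100001G20Rik, which RefSeq names Wfdc21, lies 460214 bases away and stood at 9.11 FPKM in APL#2 and 24.3 FPKM in APL#1. Taf15, an RNA-binding protein gene on the same side, stood at 7.09 FPKM in APL#2 and 8.05 FPKM in APL#1.

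**Figure D4:**
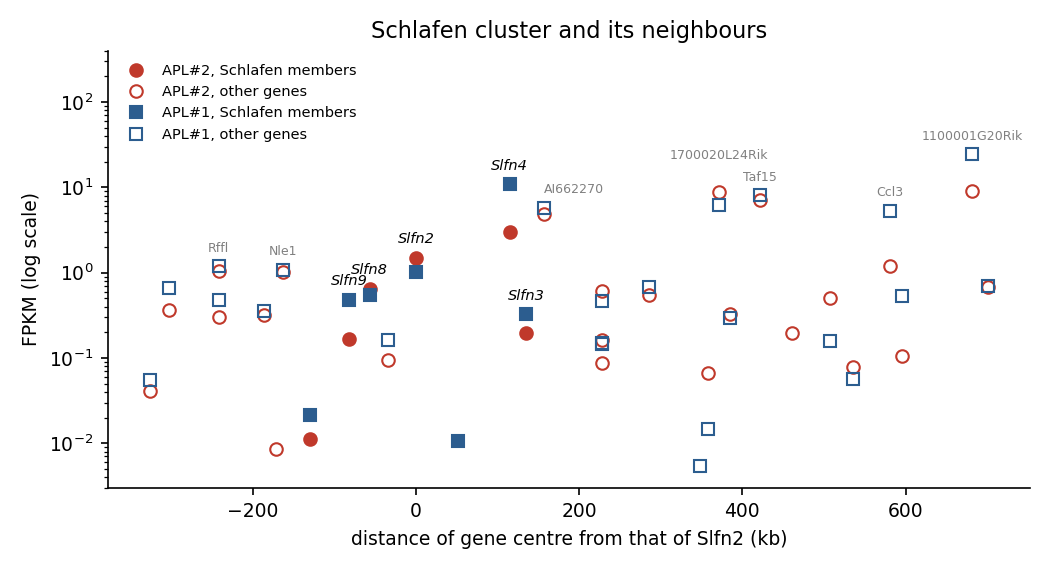
RNA level in FPKM (log axis) against the distance of each gene's centre from that of Slfn2 in kb, for APL#2 (circles) and APL#1 (squares), filled for members and open for other genes; values of 0.003 FPKM or less are not drawn. Slfn4 shows a wide gap, at 3.02 in APL#2 and 10.9 in APL#1, while Nle1 (1.01 in APL#2, 1.09 in APL#1) and AI662270 (4.82 in APL#2, 5.79 in APL#1) show a narrow one.

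Interferon is the best known inducer of Schlafen genes, and the classic interferon-induced genes were mostly below FPKM 1 in both leukaemias. Of 57 such genes in the table, 48 were below FPKM 1 in both libraries. Among 25 with a mean FPKM from 0.1 to 1, 12 (48%) had a plain ratio at least 2-fold lower in APL#2 and none was 2-fold higher, beside 9.81% and 6.28% of all genes in that range. Their median log2 ratio was -0.93, beside -0.20 for all genes in that range. A gene can enter that range through 1 library alone. Of the 12, Isg15, Ifih1, Oas1a, Trim30d, Zbp1, Gbp2 and Irgm2 were under 0.1 FPKM in APL#2 and entered through APL#1. Some list genes under 0.1 FPKM were higher in APL#2. The count was added after the data were seen, so nothing is read from it. The 7 measured members of the list held none called 2-fold different on the log2(FPKM + 1) scale, beside 2.44% of all measured genes called lower and 2.1% higher. Ifitm2, an antiviral membrane protein gene, stood at 8.28 FPKM in APL#2 and 6.47 FPKM in APL#1. Ifi27l1 stood at 5.03 FPKM in APL#2 and 7.81 FPKM in APL#1. The median of the 7 lay 0.12 above that of all measured genes, but with 32 members averaging at least 0.1 FPKM it lay at -0.07 relative to the genes so filtered. Over all 57, 39 were lower and 16 higher in APL#2 by FPKM, so 70.9% of those that differed were lower, beside 60.9% of all genes that differed.

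The low interferon-induced genes named next were picked after their values were seen, and Zbp1, Lgals3bp, Trim30d, Cxcl10 and Gbp2 have the lowest ratios of the 25. The counting intervals given for these genes do not allow for that choice. Zbp1, a nucleic acid sensor, stood at 0.0559 FPKM in APL#2 and 0.589 FPKM in APL#1, or roughly 4.35 APL#2 fragments and 42.4 APL#1 fragments. The counting interval of its ratio was 0.0229 to 0.243. Lgals3bp, a secreted galectin-binding protein gene, stood at 0.123 FPKM in APL#2 and 1.08 FPKM in APL#1, or roughly 16.3 APL#2 fragments and 131 APL#1 fragments, and its interval was 0.0627 to 0.190. Trim30d stood at 0.0535 FPKM in APL#2 and 0.384 FPKM in APL#1, and its values are uncertain because it has close relatives such as Trim30a (0.173 FPKM in APL#2 and 0.614 FPKM in APL#1). These genes, like Slfn4, were lower in APL#2 than in APL#1, and a link between them and Slfn4 was not tested. Cxcl10, a chemokine gene, stood at 0.144 FPKM in APL#2 and 0.800 FPKM in APL#1, with an interval of 0.0779 to 0.374. Gbp2, a guanylate-binding protein gene, stood at 0.0575 FPKM in APL#2 and 0.264 FPKM in APL#1, with an interval of 0.0847 to 0.464. Others barely differed or were near 0: Ddx58, an RNA sensor gene, stood at 0.399 FPKM in APL#2 and 0.358 FPKM in APL#1, and Mx1, an antiviral GTPase, was listed at 0 in APL#2 and at 0.00701 FPKM in APL#1. Slfn4 was above all but Ifitm2, Ifi27l1 and Sp100 of the list in APL#2, and above every gene of it in APL#1.

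None of 14 measured genes of the signalling chain was called 2-fold different, beside 2.44% of all measured genes called lower and 2.1% higher. The interferon genes could not be called, since none of 19 was measured: 18 were at 0 in both libraries, and Ifnz stood at 0.00814 FPKM in APL#2 and 0.0226 FPKM in APL#1. The receptor and kinase list had 5 measured genes. Ptpn6, a phosphatase of this chain, stood at 6.19 FPKM in APL#2 and 4.77 FPKM in APL#1, and Ifngr1, a receptor chain for interferon gamma, at 4.74 FPKM in APL#2 and 3.99 FPKM in APL#1. The STAT and IRF list had 9. Irf2 stood at 3.06 FPKM in APL#2 and 2.95 FPKM in APL#1, and Irf3 at 2.21 FPKM in APL#2 and 2.32 FPKM in APL#1. The receptor list lay 0.05 and the factor list 0.10 above the median of all measured genes, and both turned sign, to -0.07 and -0.01, with genes averaging at least 0.1 FPKM. At a mean FPKM from 0.1 to 1, 2 of 6 receptor and kinase genes were at least 2-fold lower and 1 higher, and 1 of 3 STAT and IRF genes was lower. Of all genes in that range 9.81% were lower and 6.28% higher by as much.

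Toll-like receptor and NF-kB genes act in the response to microbial products. Of 7 measured, 1 was called 2-fold lower and none higher, beside 2.44% and 2.1% of all measured genes. Nfkbia, the NF-kB inhibitor gene that NF-kB itself induces, stood at 3.61 FPKM in APL#2 and 10.1 FPKM in APL#1. Irak1, a kinase below the receptors, stood at 4.08 FPKM in APL#2 and 5.02 FPKM in APL#1. The list median lay at -0.08 relative to all measured genes and at 0.00 with genes averaging at least 0.1 FPKM, so its sign is not settled. Of 9 genes averaging 0.1 to 1 FPKM, 2 were at least 2-fold higher by plain ratio and none lower. Of all genes in that range 6.28% were higher and 9.81% lower by as much.

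Genes that cleave or restrict RNA, as some Schlafen proteins do, included 7 measured members. None was called 2-fold different on the log2(FPKM + 1) scale, beside 2.44% of all measured genes called lower and 2.1% higher. Rnaset2b, a lysosomal ribonuclease gene, stood at 5.06 FPKM in APL#2 and 7.76 FPKM in APL#1. Rnh1, the ribonuclease inhibitor gene, stood at 1.34 FPKM in APL#2 and 3.16 FPKM in APL#1, a plain ratio of 0.425. The list median lay at -0.12 relative to all measured genes. Of 11 genes averaging 0.1 to 1 FPKM, 1 (9.09%) was at least 2-fold lower by plain ratio and none higher. Of all genes in that range 9.81% were lower and 6.28% higher by as much.

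Genes of cell quiescence lay mostly above the median of all measured genes. Of 13 measured, 10 lay above the median of all measured genes, and the list median lay 0.34 above it. None was called 2-fold different on the log2(FPKM + 1) scale before that median was subtracted. Klf2, a quiescence factor of lymphocytes, stood at 9.73 FPKM in APL#2 and 5.07 FPKM in APL#1. Klf6 stood at 8.38 FPKM in APL#2 and 4.81 FPKM in APL#1. Tsc22d3, a glucocorticoid-induced gene, stood at 4.05 FPKM in APL#2 and 1.59 FPKM in APL#1, a plain ratio of 2.55. On the log2(FPKM + 1) scale it was short of 2-fold at 0.96 but past it, at 1.13, relative to the median of all measured genes. Of 4 genes averaging 0.1 to 1 FPKM, 1 was at least 2-fold higher by plain ratio and none lower. Of all genes in that range 6.28% were higher and 9.81% lower by as much. No p is given for these lists, which were put together with earlier results of these data known.

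**Figure D5:**
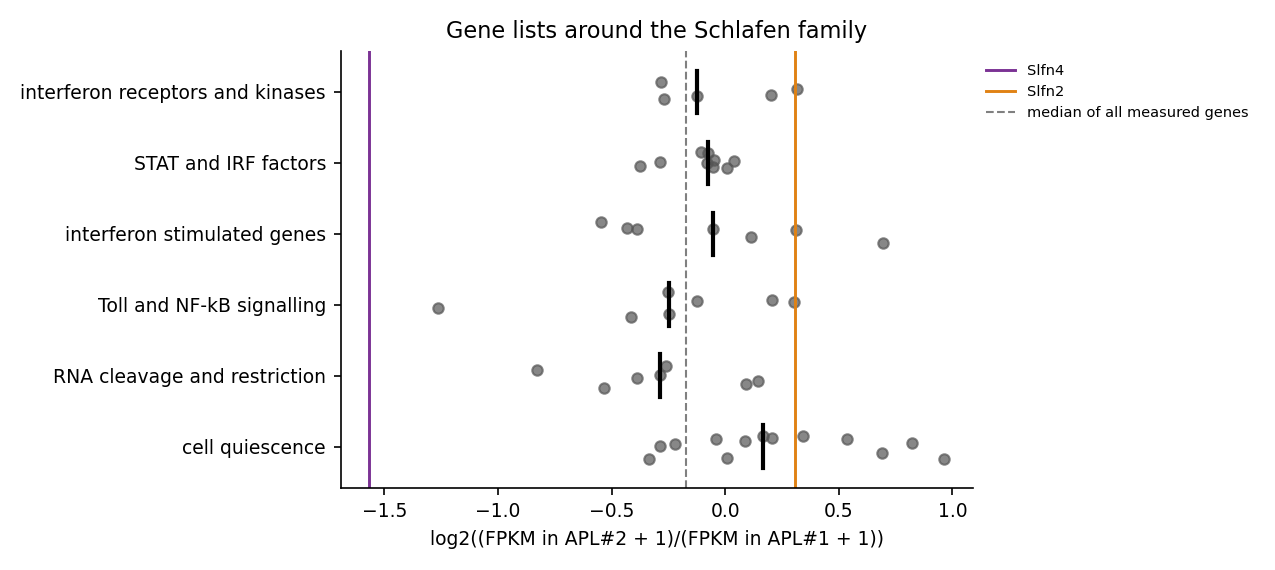
Difference on the log2(FPKM + 1) scale, APL#2 minus APL#1, of each measured gene (points) in 6 gene lists, with the list median as a black bar, the median of all measured genes as a dashed line and Slfn4 and Slfn2 as solid lines. Nfkbia at -1.26 is the list gene nearest to Slfn4 at -1.57.

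Levels most like those of the 2 members at a mean FPKM of at least 1 were sought by distance on the log2(FPKM + 1) scale over the 2 libraries, a loose measure with so few. For Slfn4 the nearest were 1810027O10Rik (Tmem256 in RefSeq; 3.41 FPKM in APL#2 and 10.00 FPKM in APL#1), H1f0 (3.59 FPKM in APL#2 and 10.6 FPKM in APL#1) and Nfkbia. For Slfn2 they were Neurl3 (1.48 FPKM in APL#2 and 1.01 FPKM in APL#1), Dpf2 (1.46 FPKM in APL#2 and 0.992 FPKM in APL#1) and Cops7a (1.55 FPKM in APL#2 and 1.00 FPKM in APL#1).

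Markers of the labelled cells were present, and those of monocytes, T cells and B cells were low. The counts of markers called 2-fold stand beside 2.44% of all measured genes called lower and 2.1% higher. All 7 promyelocyte markers were measured and summed to 228.1 FPKM in APL#2 and 768.7 FPKM in APL#1, and 3 were called 2-fold lower: Mpo (157.3 FPKM in APL#2 and 661.8 FPKM in APL#1), Elane (5.01 FPKM in APL#2 and 32.4 FPKM in APL#1) and Prss57 (1.22 FPKM in APL#2 and 3.52 FPKM in APL#1). Most of that sum is Mpo, and the list did not move as one: Ms4a3 stood at 15.9 FPKM in APL#2 and 7.85 FPKM in APL#1, Ctsg at 8.99 FPKM in APL#2 and 7.89 FPKM in APL#1, and Cd63 at 37.2 FPKM in APL#2 and 51.8 FPKM in APL#1. Later neutrophil markers, 6 of 10 measured, summed to 460.2 FPKM in APL#2 and 840.0 FPKM in APL#1, with S100a8 and S100a9 called 2-fold lower, while Camp (152.5 FPKM in APL#2 and 97.5 FPKM in APL#1) and Ngp (41.7 FPKM in APL#2 and 31.7 FPKM in APL#1) were higher in APL#2. Basophil or mast cell markers, 4 of 7 measured, summed to 18.4 FPKM in APL#2 and 53.2 FPKM in APL#1, with Cpa3 and Hdc called 2-fold lower, Mcpt8 called 2-fold higher, and Fcer1a and Prss34 at 0 in both. These 3 sums, though not each of their genes, were lower in APL#2, as Slfn4 was, and their part in its difference was not tested. Monocyte and macrophage markers summed to 2.11 FPKM in APL#2 and 2.02 FPKM in APL#1, with 11 of 12 below FPKM 1 in both. Cd68 stood at 1.01 FPKM in APL#2 and 1.54 FPKM in APL#1, Emr1 at 0.537 FPKM in APL#2 and 0.0230 FPKM in APL#1, Csf1r at 0.101 FPKM in APL#2 and 0.0667 FPKM in APL#1, and Fcgr1 at 0 in both. T cell markers, 10 of 10 below FPKM 1 and Trat1 at 0 in both, summed to 0.314 FPKM in APL#2 and 0.0584 FPKM in APL#1, and the highest were Cd3d and Cd3g. B cell markers, 7 of 7 below FPKM 1, summed to 0.487 FPKM in APL#2 and 0.233 FPKM in APL#1, and the highest were Cd79a and Pax5. The NK cell, dendritic cell, megakaryocyte or platelet and spleen stroma lists each had 1 measured gene, and the erythroid list had none. These were Nkg7 at 26.7 FPKM in APL#2 and 37.3 in APL#1, and Bst2 at 2.19 in APL#2 and 2.30 in APL#1. They also included Itga2b at 3.95 FPKM in APL#2 and 2.34 in APL#1, and Pecam1 at 1.62 in APL#2 and 3.62 in APL#1. In bulk RNA, fewer cells of a type and less RNA per cell cannot be told apart.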

How the data were processed

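RNA sequencing values of 2 libraries, APL#2 and APL#1, were read from 1 gene table deposited by the authors. Its 2 value columns were read as FPKM, since the authors' column names are those Cuffdiff writes; the header names no unit. For each gene there are a test score, a p-value and a q-value from the authors, per the file headers. TopHat2 2.0.10, Cufflinks, Cuffdiff and mm9 are named in the submitters' processing notes; read layout, strand, annotation, filters and the handling of reads matching several genes are unstated in those sources. Start positions in the table count from 0 and are printed plus 1.

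Differences used a pseudocount of 1, which understates those of low genes. No test was run, since each leukaemia has 1 library. Fragments were estimated from 17 low genes of 1 transcript: 1 fragment on 1 kb was worth 0.0177 FPKM in APL#2 and 0.0191 FPKM in APL#1. Lengths and coding sequences came from GENCODE M21, which may differ from the authors' annotation, so fragment numbers and their 95% intervals are approximate and cover counting error only. The depth estimate was tested on simulated data. The implied standard error is the log2 ratio divided by the deposited test statistic. Coding sequences were aligned globally, without a penalty for gaps at the ends, with Biopython 1.88, and identity is over aligned bases without gaps. Promoters came from RefSeq; all 7 members matched, Slfn8 with 2 windows, of which the first is printed.

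Members and gene lists were chosen with earlier results of these data known. Of each list described above the text names members called 2-fold different and the 2 of highest mean. For the NK cell, dendritic cell, megakaryocyte or platelet and spleen stroma lists it names the measured gene alone, and for the erythroid list no gene. Others are said to be named after their values were seen. Named otherwise after their values were seen were Taf15, Sp100, Tsc22d3, Ms4a3, Ctsg, Camp, Ngp, Csf1r, Fcgr1, Trat1, Fcer1a and Prss34. Counts of list genes averaging 0.1 to 1 FPKM by plain ratio were added after the data were seen. Alternatives covered the pseudocount, the filter, centring, scaling and the neighbour window.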

Additional observations from a re-analysis of the deposited data

How the results depend on the processing

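Slfn4 was at least 2-fold lower in APL#2 under each alternative tried: its difference of -1.57 became -1.82 with a pseudocount of 0.1, -1.85 with 0.01, -1.39 relative to the median of measured genes and -1.38 after upper-quartile scaling. Slfn9 depends on the pseudocount: -0.34 with 1, -1.12 with 0.1 and -1.47 with 0.01, by construction, since a pseudocount of 1 exceeds its level. Slfn1, at about 1 fragment or less, reached -1.03 with 0.01. Relative to the median, Slfn1 (0.16), Slfn3 (0.02) and Slfn5 (0.16) changed sign; none was called, and a gene near 0 FPKM gains 0.17 there by construction. Slfn2 and Slfn8 stayed positive in each. Genes called higher and lower numbered 132 and 252 with a pseudocount of 0.1, 138 and 280 with 0.01, and 46 and 65 with a mean FPKM of at least 5, where fewer genes were counted; the main counts were 86 and 100. The median of the cluster's neighbours ranged from 0.01 to 0.07 relative to all genes. List medians relative to all genes depend on the filter. At a mean FPKM of at least 0.1 those of interferon-induced genes (-0.07), receptors and kinases (-0.07), STAT and IRF factors (-0.01) and Toll and NF-kB genes (0.00) turned sign or reached 0, and the quiescence list lay at 0.24. At a mean FPKM of at least 5, with 1 to 3 genes left, receptors and kinases lay at 0.47, Toll and NF-kB genes at -1.11, RNA cleavage genes at -0.38, quiescence genes at 0.85 and interferon-induced genes at 0.04; the STAT and IRF list had no gene left. No paired analysis was possible because each leukaemia has 1 library, and for the same reason no replicate could be left out. Depth limits Slfn1 and Slfn5, which rest on fewer than 10 estimated fragments in each library.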
